A study of Mus musculus with 3 samples.

Results

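The names of 8 long non-coding RNAs (lncRNAs) that are widely studied in the nucleus or in the heart were looked up in a transcript annotation of mouse heart ventricle. They were Malat1, Neat1, Miat, Tug1, Pvt1, Dleu2, Dnm3os and Fendrr, and a locus was a member when the deposited annotation gave one of these as its gene name. Of the 8 names, 7 were found, on 10 of the 48626 loci of the expression table. Fendrr was absent by name. Dnm3os was carried by 4 loci, 1 on its own strand and 3 on the opposite strand, and each of the other names by 1 locus. The values are FPKM for each locus, that is fragment numbers scaled to the exon length of the locus and to the size of the library, so levels are expressed per length.

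The libraries were made from total RNA of heart ventricles of C57BL/6 mice (C57BL/6 J in the study's methods), with a kit that keeps the strand of the RNA. The stages were E10.5 and E13.5, counted in embryonic days, and the adult of 8 weeks. All animals were of 1 strain and no mutation or treatment is given for any group. How many hearts were pooled in a library is not given in the labels. There was 1 library per stage, so each difference below compares 2 libraries, has no replicate check and carries no error or p-value.

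Malat1 and Neat1 are abundant, mostly unspliced RNAs that stay in the nucleus. Malat1 collects in nuclear speckles, the stores of splicing factors, and the long form of Neat1 is the scaffold on which paraspeckles are built. Malat1 and the long form of Neat1 end not in a poly(A) tail but in a triple helix, made when RNase P cuts the transcript just before a tRNA-like element. The others act in various ways: Dleu2 and Dnm3os are precursors of microRNAs (miRNAs), Pvt1 lies beside the oncogene Myc, Tug1 shares a start region with a coding gene, Miat is a nuclear RNA named for its link to myocardial infarction, and Fendrr lies beside the transcription factor gene Foxf1 and is known for its role in lateral mesoderm, from which the heart forms.

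The tissue label held against its markers. All 5 cardiomyocyte markers were above 1 FPKM in each library, with Myl2, the ventricular myosin light chain, at 7790 FPKM in E10.5 ventricle, 12217 in E13.5 and 11568 in adult ventricle. The FPKM columns summed to 601115, 808971 and 443471, and the smallest steps of the values put 1 FPKM over 1 kb at about 13.8, 24.7 and 15.5 fragments in the 3 libraries, which is approximate. The libraries also differed in unspliced RNA outside known genes. Among 22805 unnamed unspliced loci, 24.3% reached 1 FPKM in E10.5 ventricle, 7.31% in E13.5 and 36.0% in adult ventricle, with medians of 0.165, 0.0688 and 0.768 FPKM.

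The 7 names found spanned a wide range. In each library Malat1 was highest and Miat lowest, and 6 of the 7 main loci were at 1 FPKM or more in all 3 libraries. At E10.5 the order was Malat1, Tug1, Dleu2, Neat1, Pvt1, Dnm3os and Miat. At E13.5 Dleu2 and Dnm3os lay side by side at 13.3 and 13.1 FPKM and Neat1 was next to last. In the adult Neat1 was second, ahead of Tug1 and Dleu2. Neighbours in these orders cannot be separated beyond an error, since no stage was repeated. In bulk tissue, fewer cells of a type and less RNA per cell cannot be told apart, which holds for each difference given here.

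**Figure D1:**
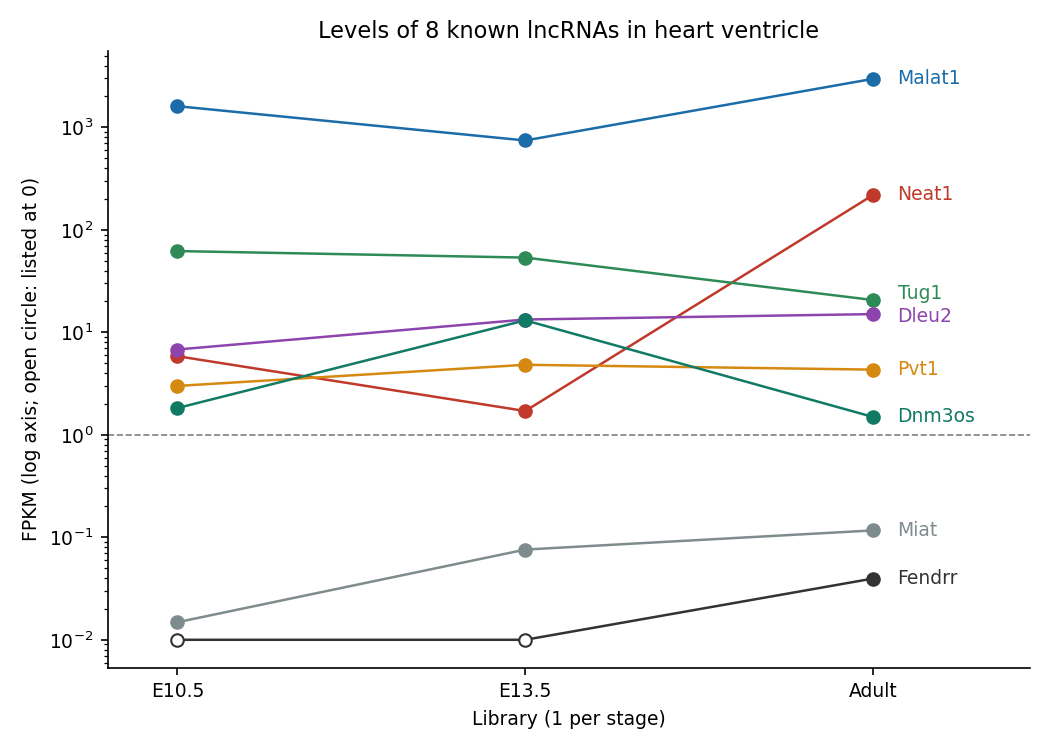
FPKM (log axis) of the main locus of each lncRNA in the E10.5, E13.5 and adult library, with 1 point per library and lines only to join the points of 1 gene. Fendrr is the locus found by its RefSeq accession, open circles mark values listed at 0, and the dashed line marks 1 FPKM. Neat1 moves from 5.85 and 1.71 FPKM in the embryonic libraries to 219 FPKM in the adult.

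A difference between libraries was called when it reached 1 on the log2(FPKM + 1) scale, which understates the change of low loci. It was set beside the 26910 loci that reached 1 FPKM in any of the libraries. From E10.5 to E13.5, 1 of the 6 members at 1 FPKM was called higher (Dnm3os), where 3.95% of all loci were, and 2 were called lower (Malat1 and Neat1), where 17.2% of all loci were. From E13.5 to the adult, 2 were called higher (Malat1 and Neat1, against 29.1% of all loci) and 2 lower (Tug1 and Dnm3os, against 18.6%). From E10.5 to the adult, 2 were called higher (Neat1 and Dleu2, against 25.8%) and 1 lower (Tug1, against 24.9%). Among the 308 RefSeq lncRNA loci tested, 10.4%, 18.5% and 20.1% were called higher in these comparisons, and 5.52%, 25% and 19.5% lower. The median difference of the 6 members was 0.17, 0.02 and 0.65 in these comparisons, against -0.02, 0.19 and -0.09 over all loci tested. With 6 members, these counts describe single genes rather than a common direction.

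The deposited scaling mattered for calls near the limit. Factors from coding genes moved the median difference of all loci from 0.19 to 0.72 between E13.5 and the adult, and from -0.09 to 0.46 between E10.5 and the adult, while with the sum of long loci the median between the embryonic libraries went from -0.02 to -0.19. Relative to the median of all loci under the same scaling, the adult value of Malat1 exceeded that of E10.5 by 0.98 as deposited and by 0.84 with these factors, and that of Dleu2 by 1.13 and 0.96. The corresponding values for Neat1 were 5.10 and 4.94, and for Tug1 -1.45 and -1.60. From E10.5 to E13.5, Dnm3os stood 2.34 and 2.22 above that median. Scaling factors largely cancel when the median is subtracted, so the values of each pair lie close by construction.

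**Figure D2:**
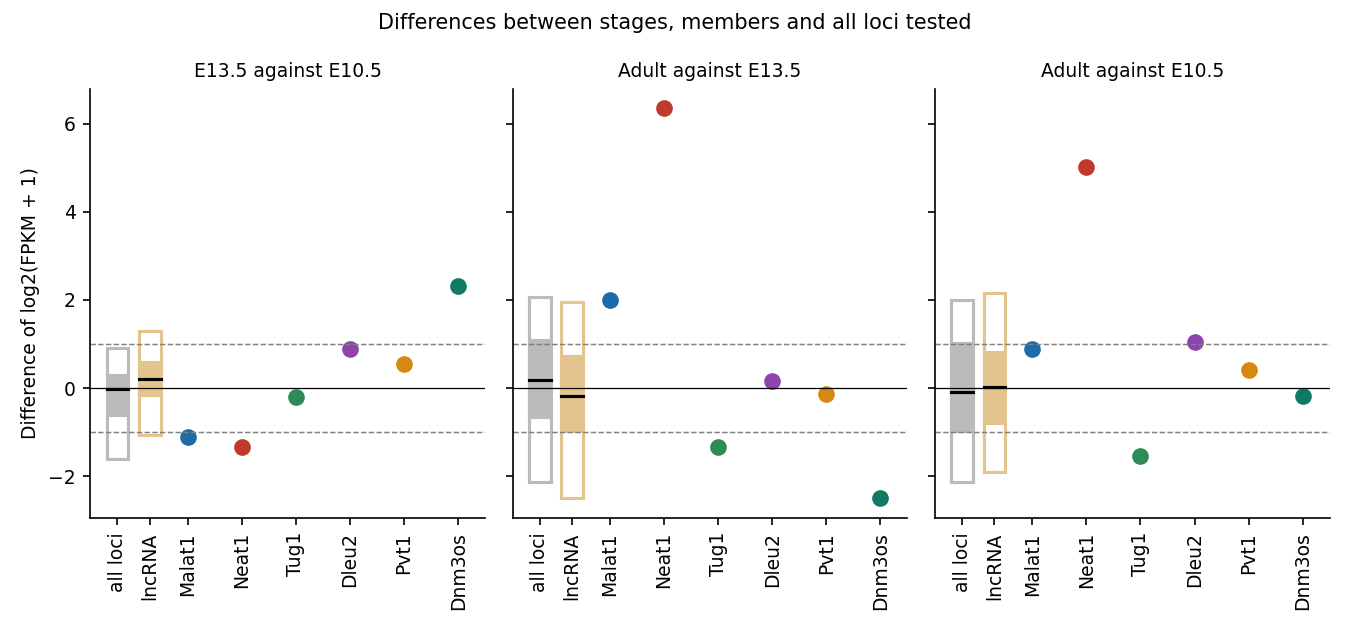
Difference of log2(FPKM + 1) between libraries for the 6 members at 1 FPKM or more (points), beside all 26910 loci tested (grey) and the 308 RefSeq lncRNA loci among them (tan). Filled boxes span the 25th to 75th percentile, outlined boxes the 5th to 95th, black lines are medians and dashed lines mark a difference of 1 in either direction. Neat1 lies at 6.35 and 5.01 in the comparisons with the adult, and Dnm3os at 2.32 from E10.5 to E13.5.

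Malat1 (chr19:5792511-5803492, minus strand) was at 1608 FPKM in E10.5 ventricle, 744 in E13.5 and 2974 in adult ventricle. The adult value was the highest and the E13.5 value the lowest. It ranked 31st, 108th and 13th among all loci of the table, and 3rd, 7th and 1st among 1619 RefSeq lncRNA loci, and it took 0.267%, 0.0920% and 0.671% of the summed FPKM. The differences were -1.11 from E10.5 to E13.5, 2.0 from E13.5 to the adult and 0.89 from E10.5 to the adult on the log2(FPKM + 1) scale. The last value passed 1 under both other scalings, at 1.30 with factors from coding genes and 1.07 with the summed FPKM of long loci. The difference from E13.5 to the adult was not rare in this pair of libraries, since 1489 of the 26910 loci had as large a positive difference.

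Neat1 (chr19:5823414-5845880, minus strand) lay 19921 bp from Malat1 on the same strand. Its locus was at 5.85 FPKM in E10.5 ventricle, 1.71 in E13.5 and 219 in adult ventricle. The adult value was thus 37.5 times the E10.5 value and 128 times the E13.5 value, while that of Malat1 was 1.85 times and 4.0 times. The differences of log2(FPKM + 1) were -1.34, 6.35 and 5.01. In both comparisons with the adult no other of the 308 RefSeq lncRNA loci tested had a larger positive difference, and of all 26910 loci 8 were as high against E13.5 and 25 against E10.5, Neat1 included. Among lncRNA loci it moved from rank 58 and 163 in the embryonic libraries to rank 8 in the adult.

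Both RNAs were assembled as a single unspliced block. The assembled Malat1 transcript was 10982 nt, against 6982 nt in RefSeq, and ran 820 nt past the 5′ end and 3179 nt past the 3′ end of the RefSeq gene. The assembled Neat1 transcript was 22467 nt. It covered the RefSeq gene of 20773 nt with 400 nt more at the 5′ end and 1294 nt at the 3′ end, while the RefSeq transcript used in the annotation was the short form of 3177 nt. Because the table gives 1 value per locus, the short and the long form of Neat1 cannot be told apart in these values. Of 2 unnamed loci between the genes, the one on their strand was at 0.220 FPKM at E10.5, was listed at 0 at E13.5 and reached 2.68 FPKM in adult ventricle. The one on the opposite strand was at 4.90, 0.276 and 0.598 FPKM, highest at E10.5.

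**Figure D3:**
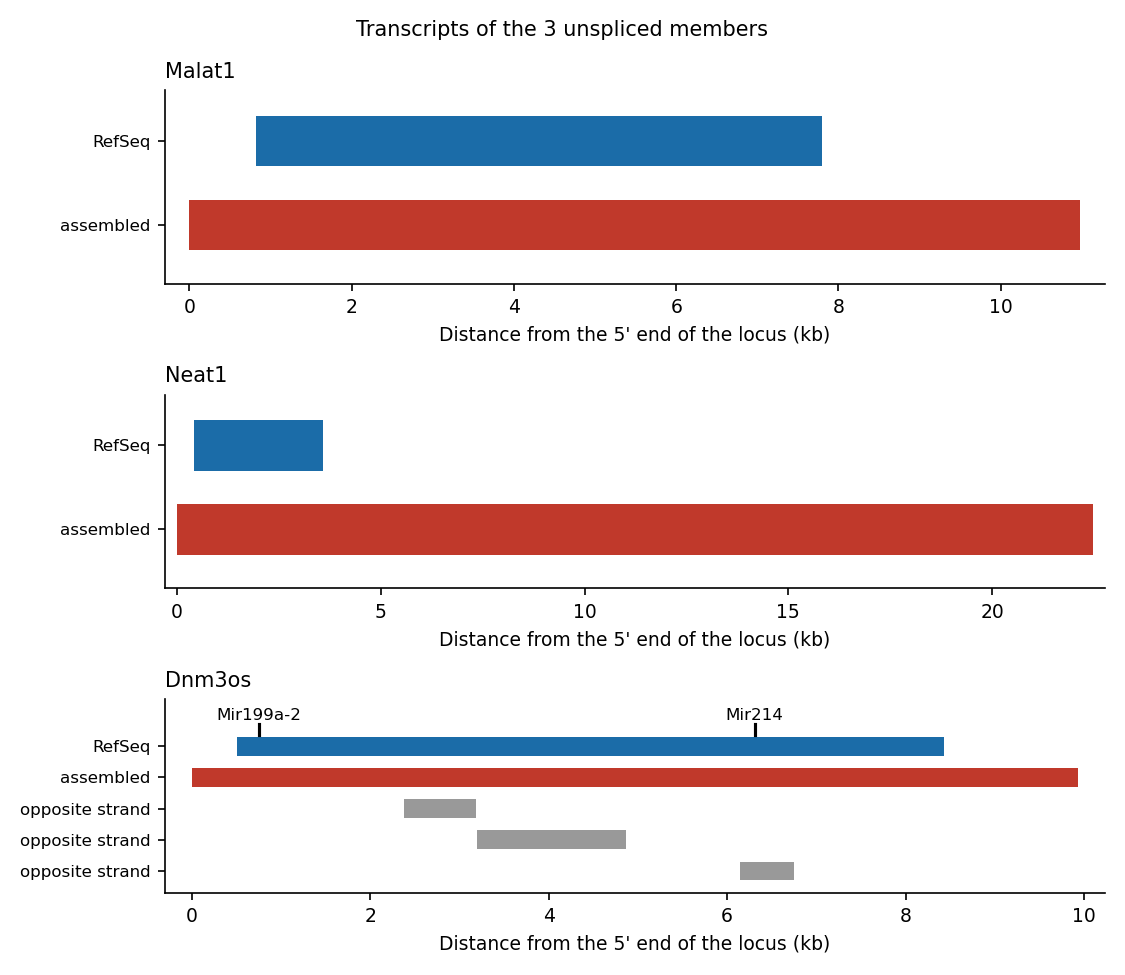
Exons of the transcripts of Malat1, Neat1 and Dnm3os, plotted as distance in kb from the 5′ end of the locus, with a separate scale in each panel. Red bars are transcripts assembled from these libraries, blue bars RefSeq transcripts and grey bars loci on the opposite strand that carry the name Dnm3os, and ticks mark the hairpins of 2 miRNA genes. The assembled Neat1 transcript of 22467 nt extends far beyond the short RefSeq form of 3177 nt.

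The 3′ ends of the pair are shown because they are what Malat1 and Neat1 share in sequence and what sets them apart from polyadenylated lncRNAs. The windows are read from GRCm38.p6 on the minus strand, chr19:5795917-5796070 for Malat1 and chr19:5824643-5824802 for Neat1. Capitals mark the runs of 10 or more bases that occur in both within 400 bases of the annotated 3′ ends.
Malat1: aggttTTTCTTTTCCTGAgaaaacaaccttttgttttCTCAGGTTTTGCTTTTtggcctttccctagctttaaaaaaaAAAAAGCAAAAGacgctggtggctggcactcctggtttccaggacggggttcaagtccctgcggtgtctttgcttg
Neat1: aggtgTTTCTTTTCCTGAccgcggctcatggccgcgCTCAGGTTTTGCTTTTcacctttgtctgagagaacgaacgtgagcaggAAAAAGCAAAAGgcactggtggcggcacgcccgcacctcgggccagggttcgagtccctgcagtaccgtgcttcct
There were 3 shared runs, TTTCTTTTCCTGA and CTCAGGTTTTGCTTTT, which hold the U-rich strands of the triple helix, and AAAAAGCAAAAG, which holds the A-rich strand. In both genes they followed in the same order, and the tRNA-like element begins at the end of the last run. Searched on both strands of 32851 mouse promoter windows of 300 bases, these letters occurred in 0.00304%, 0% and 0.0335% of them. The assembled transcripts of both genes ran through this end, past the tRNA-like element. Cut and uncut RNA are therefore summed in the locus value.

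Strand and unspliced background were measured beside these values. An unnamed opposite-strand locus at the 5′ end of Malat1 was at 1.10, 0.305 and 2.03 FPKM, which was 0.0687%, 0.0410% and 0.0683% of Malat1. Another, starting 167 bp from Neat1 and transcribed away from it, was listed at 0 at E10.5 and was at 0.349 FPKM at E13.5 and 2.50 FPKM in the adult. Malat1, Neat1 and the unnamed unspliced loci shared their order over the libraries, lowest at E13.5 and highest in the adult. The part of unspliced RNA content in the differences of Malat1 and Neat1 was not tested. When the libraries were scaled to the unnamed unspliced loci, an alternative chosen after seeing the data, the differences of Malat1 became 0.12, -0.28 and -0.16, and those of Neat1 -0.45, 4.41 and 3.96. This scaling moved the median of all loci to 0.91, -1.51 and -1.0. Relative to it, Malat1 stood at -0.78, 1.22 and 0.84 and Neat1 at -1.35, 5.92 and 4.96. As deposited, Malat1 stood at -1.09, 1.81 and 0.98 relative to the median and Neat1 at -1.32, 6.15 and 5.10. A scaling factor largely but not fully cancels in this subtraction, so most of this likeness is built in.

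Some lists of cell markers also moved between the embryonic and the adult library, while others were mixed or did not move. From E10.5 to the adult, 0 of 5 endothelial markers were called, with a median of -0.09, as over all loci. Of 5 cardiomyocyte markers, 2 were called higher and 1 lower. Of 3 neuron and glia markers at 1 FPKM, 1 was called higher and 1 lower. All 6 macrophage markers were called higher in the adult than at E10.5, as were 25.8% of all loci, their sum being 38.6 FPKM in E10.5 ventricle, 95.6 in E13.5 and 376 in adult ventricle, and none was at 0. All 10 proliferation genes were called lower, as were 24.9% of all loci, from a sum of 564 and 674 FPKM to 7.56. Between the embryonic libraries the macrophage sum was higher at E13.5, while Neat1 was lower there. The part of these cells in the adult level of Neat1 was not tested.

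The mRNAs of the proteins that work with these RNAs were mostly lower in the adult. From E10.5 to the adult, 12 of 15 paraspeckle proteins were called lower and none higher, with a median of -1.44 against -0.09 over all loci, of which 24.9% were called lower. Over the 12569 coding loci alone the median was -0.40 and 27.3% were called lower. Sfpq, a core paraspeckle protein, went from 180 FPKM in E10.5 ventricle to 102 in E13.5 and 40.7 in adult ventricle, the lowest difference of the list. Hnrnph3, also a paraspeckle component, was at 5.23, 7.22 and 5.87 FPKM, the highest difference of the list at 0.14. Nono, the partner of Sfpq, is joined with Itgb1bp2 in the deposited annotation. The joint locus was at 184, 241 and 187 FPKM, which cannot be assigned to Nono alone. Neat1 was thus higher in the adult in the same libraries in which the mRNAs of most of its listed protein partners were lower.

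The mRNAs of nuclear speckle and SR proteins, the splicing factors stored around Malat1, were mostly lower in the adult as well. Against E10.5, 10 of 16 were called lower in adult ventricle and none higher, with a median of -1.25, beside the same 24.9% and -0.09 over all loci. Over coding loci alone, 27.3% were called lower and the median was -0.40. Srsf7 had the lowest difference, from 109 FPKM at E10.5 and 123 at E13.5 to 21.5 in the adult, and Srsf5 the highest, at 48.1, 63.4 and 44.1 FPKM. The scaffold proteins of speckles, Son and Srrm2, were lowest at E13.5 like Malat1, Son at 74.0, 39.8 and 61.3 FPKM and Srrm2 at 65.7, 14.6 and 37.5 FPKM. These were chosen after their values were seen.

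The enzymes that form the 3′ ends were measured by 12 genes, the RNase P subunits, the RNase Z gene Elac2 and Mettl16, whose product binds the Malat1 triple helix. From E10.5 to the adult 3 were called lower and none higher, with a median of -0.66, where 24.9% of all loci were called lower and the median was -0.09. The share of the list, 3 of 12, was thus close to the background. Elac2 was at 14.2, 15.6 and 8.95 FPKM and Mettl16 at 16.9, 18.6 and 9.92 FPKM. The lowest difference was that of Rpp25, from 3.88 and 5.77 to 0.903 FPKM, and the highest that of Pop4, at 12.0, 60.5 and 15.8 FPKM. With factors from coding genes, the medians of these 3 lists from E10.5 to the adult stayed below 0, at -1.05, -0.87 and -0.27, while that of all loci was 0.46. The lists hold coding genes, and coding loci alone had a median of -0.40 as deposited. These factors shift differences by about 0.41 in this comparison. The end-processing list therefore lay closer to coding loci than to all loci.

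Neither of the 2 coding genes described here around the pair was called higher in the adult. Frmd8, which starts 29328 bp upstream of Neat1 on the same strand, was at 13.3 FPKM in E10.5 ventricle, 12.8 in E13.5 and 2.72 in adult ventricle, called lower in the adult. Ltbp3, on the other side of the pair and on the opposite strand, was at 1.44, 3.65 and 2.44 FPKM.

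Tug1 (chr11:3639592-3649025, minus strand), a spliced and broadly expressed RNA first described as a gene induced by taurine in the retina, was the second most abundant member in the embryonic libraries. It was at 62.0 FPKM in E10.5 ventricle, 53.6 in E13.5 and 20.6 in adult ventricle, lowest in the adult. The differences were -0.21, -1.33 and -1.54. The value of -1.33 from E13.5 to the adult fell short of the limit under both other scalings, at -0.78 and -0.79, while that from E10.5 stayed past it, at -1.14 and -1.37. Among lncRNA loci Tug1 held rank 9, 15 and 15. Its 4 transcripts had 2 to 4 exons, and the assembled ends lay 211 nt and 193 nt outside the RefSeq gene.

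In the deposited annotation Tug1 starts 219 bp from Morc2a, a coding gene for a chromatin ATPase, transcribed the other way. Morc2a was at 16.7, 12.7 and 8.69 FPKM, with differences of -0.37, -0.50 and -0.87, none past the limit. Both genes were highest at E10.5 and lowest in the adult as deposited, and with factors from coding genes the difference of Morc2a from E13.5 to the adult was 0.02. The promoter windows of the pair, taken from RefSeq on GRCm38.p6 from 250 bases before to 50 after the start, are printed because the genes share this start region. They are chr11:3648765-3649064 on the minus strand and chr11:3649187-3649486 on the plus strand, each 5′ to 3′ along its own gene. Capitals mark GGGCGG (a GC box), CCAAT and TATAAA on either strand.
Tug1: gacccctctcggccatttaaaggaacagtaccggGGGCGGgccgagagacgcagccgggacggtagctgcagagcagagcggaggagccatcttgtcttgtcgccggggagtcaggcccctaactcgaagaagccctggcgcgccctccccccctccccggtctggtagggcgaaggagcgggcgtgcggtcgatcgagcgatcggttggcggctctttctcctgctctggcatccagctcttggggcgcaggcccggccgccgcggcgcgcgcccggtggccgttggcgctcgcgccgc
Morc2a: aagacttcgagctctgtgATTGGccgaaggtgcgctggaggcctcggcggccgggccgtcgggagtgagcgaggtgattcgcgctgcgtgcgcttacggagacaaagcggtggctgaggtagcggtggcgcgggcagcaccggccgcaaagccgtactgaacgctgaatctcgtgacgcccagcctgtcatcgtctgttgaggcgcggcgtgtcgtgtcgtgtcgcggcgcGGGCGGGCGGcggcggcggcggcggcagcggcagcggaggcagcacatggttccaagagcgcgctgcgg
The Tug1 window held 37 CpG and was 71.3% G and C, and the printed one of Morc2a 46 CpG and 70.3%. The median over all 32851 windows was 7 CpG. Tug1 held 1 GC box, and the printed Morc2a window held 2, which overlap, and 1 CCAAT on the reverse strand. A second Morc2a window, at chr11:3658422-3658721 on the plus strand, held 0 CpG, 28.3% G and C, 0 GC boxes, 0 CCAAT and 1 TATAAA. Of all windows, 35.7% held GGGCGG, 37.4% CCAAT and 13.6% TATAAA. Of the 8 names, 6 had an entry in the promoter table, and Neat1 and Pvt1 had none.

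Dleu2 (chr14:61602836-61682373, minus strand) is the host of Mir15a and Mir16-1, miRNA genes known as brakes on the cell cycle and for their loss in lymphocytic leukaemia. The deposited annotation joins it with Mir15a in 1 locus, at 6.79 FPKM in E10.5 ventricle, 13.3 in E13.5 and 15.1 in adult ventricle. E10.5 was the lowest, and the values at E13.5 and in the adult lay close to each other. The differences were 0.88, 0.16 and 1.04, the last just past the limit. Of the 26910 loci tested, 6395 had as large a positive difference from E10.5 to the adult. Its rank among lncRNA loci went from 49 to 33 and 20.

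The mature miRNAs of the cluster are shown because they share a seed, the part that pairs with targets. Sequences are from RefSeq, with bases 2 to 8 in capitals.
miR-15a-5p: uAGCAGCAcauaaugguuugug
miR-16-5p: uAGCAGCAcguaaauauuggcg
The first lies at chr14:61632075-61632096 and the second at chr14:61631936-61631957, both on the minus strand, as is Dleu2. The seed AGCAGCA is identical in both. Of the 6 Dleu2 transcripts in the annotation, 3 held miR-15a-5p within an exon and 3 within an intron. The stretch of miR-16-5p lay in an intron of 3 transcripts, 43 nt from the nearest exon. The value of the locus thus mixes exons that cover a hairpin with spliced transcripts that do not, and the Mir16-1 locus was listed at 0 in all 3 libraries. Mature miRNAs are not among the values used here.

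The same mature miR-16-5p is also made from Mir16-2, within Smc4, a condensin gene used in cell division. Smc4 was at 54.5 FPKM in E10.5 ventricle, 73.1 in E13.5 and 6.88 in adult ventricle, so the hosts of the 2 copies lay in opposite order between E10.5 and the adult. Beside Dleu2, Trim13 overlaps its 3′ part on the other strand and was at 9.85, 14.1 and 10.8 FPKM. Kcnrg, inside Dleu2 on the other strand, was at 0.361, 0.161 and 0.247 FPKM, and Dleu7 at 0.152 and 0.592 FPKM in the embryonic libraries, with an adult value listed as 0.

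Pvt1 (chr15:62037981-62250975, plus strand) had no called difference among the libraries. It was at 3.0 FPKM in E10.5 ventricle, 4.82 in E13.5 and 4.32 in adult ventricle, with differences of 0.54, -0.13 and 0.41, none past the limit. The locus held 6 transcripts of 2 to 9 exons, of which 5 were assembled from these libraries. Myc, a regulator of growth whose start lies 52640 bp upstream on the same strand, was at 4.36, 3.0 and 1.76 FPKM, with differences of -0.42, -0.54 and -0.96. Pvt1 was lowest at E10.5, where Myc was highest. The difference of Pvt1 from E13.5 to the adult changed sign with the scaling, to 0.34 and 0.33, so its direction there is not set.

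Dnm3os (chr1:162217121-162227053, plus strand) is transcribed against Dnm3, within it, and is the precursor of Mir199a-2 and Mir214, which are known from skeletal and heart muscle and from fibroblasts. Its main locus was at 1.82 FPKM in E10.5 ventricle, 13.1 in E13.5 and 1.49 in adult ventricle. E13.5 stood 7.18 times above E10.5, and E10.5 and the adult lay close together. The differences were 2.32, -2.50 and -0.18. The first was the largest positive difference among the 308 RefSeq lncRNA loci from E10.5 to E13.5, and 100 of all 26910 loci were as high. The unnamed unspliced loci, Malat1 and Neat1 were lowest at E13.5. The part of unspliced RNA content in the values of Dnm3os was not tested.

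Both hairpins lie within the single exon of Dnm3os. The mature sequences, from RefSeq, are shown with bases 2 to 8 in capitals.
miR-199a-5p: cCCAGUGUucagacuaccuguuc
miR-199a-3p: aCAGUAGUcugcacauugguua
miR-214-5p: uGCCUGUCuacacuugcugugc
miR-214-3p: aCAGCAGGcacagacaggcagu
They lie at chr1:162217844-162217866, chr1:162217883-162217904, chr1:162223397-162223418 and chr1:162223438-162223459 on the plus strand. The 4 seeds differ from each other and from AGCAGCA of the Dleu2 cluster. The assembled transcript of 9933 nt, against 7928 nt in RefSeq, covered both hairpins as a continuous exon. The miR-199a sequences have other copies, Mir199a-1 opposite Dnm2 and, for the 3p arm alone, Mir199b opposite Dnm1, while miR-214 has none in the table. Neither Mir199a-2 nor Mir214 had a locus of its own.

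The 3 other loci named Dnm3os lie on the minus strand, inside the main locus and on the strand of Dnm3. In the adult they were at 1.93, 1.45 and 1.54 FPKM, which was 129%, 97.4% and 103% of the main locus. At E10.5 they were at 0.115, 0.0558 and 0.124 FPKM. At E13.5 the outer pair were listed at 0 and the middle one was at 0.0315 FPKM. Dnm3 itself was at 0.217, 0.312 and 2.83 FPKM, highest in the adult as they were. When all 4 loci were summed under the name, the adult value became 6.41 FPKM, its difference from E13.5 -0.93 and that from E10.5 1.25, so the calls of Dnm3os in the adult depend on keeping the strands apart.

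The peak of Dnm3os at E13.5 coincided with higher mesenchyme and fibroblast markers. Of these 10, 5 were called higher from E10.5 to E13.5 and none lower, with a median of 1.12 against -0.02 over all loci, where 17.2% were called lower and 3.95% higher. Between E13.5 and adult ventricle 6 were called lower and 1 higher, with a median of -1.26 against 0.19 over all loci, of which 18.6% were called lower and 29.1% higher. Over coding loci alone that median was -0.50 and 32.1% were called lower. The marker called higher was Dcn, a matrix proteoglycan, at 49.5, 75.9 and 351 FPKM. Twist1, a transcription factor known to drive Dnm3os, was at 9.16 FPKM in E10.5 ventricle, 23.0 in E13.5 and 0.428 in adult ventricle, and Postn, a matrix protein of valve and fibroblast cells, at 25.8, 188 and 18.6 FPKM. Prrx1 was at 2.04, 10.8 and 20.5 FPKM, the highest difference of the list from E10.5 to the adult. The sum of the list was 282, 689 and 541 FPKM, and without Dcn, left out after its values were seen, it was 232, 613 and 190 FPKM, and only Twist2, in the adult, was listed at 0. The part of the number of mesenchymal cells in the value of Dnm3os was not tested.

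Miat (chr5:112213228-112228948, minus strand) was below 1 FPKM throughout. It was at 0.0148 FPKM in E10.5 ventricle, 0.0759 in E13.5 and 0.117 in adult ventricle. At the estimated depth, its exons of up to 8760 nt correspond to about 1.79, 16.4 and 15.9 fragments, so no difference between stages could be read. No transcript was assembled at this locus, and the 2 transcripts listed are RefSeq ones of 7 exons. Among 1619 lncRNA loci it ranked 795, 578 and 620. Sf1, the splicing factor best known to bind Miat, was at 28.4, 12.9 and 10.3 FPKM. Of 5 listed Miat-binding splicing factors, Qki had no locus of that name, and other symbols were not searched. Of the 4 found, 3 were called lower from E10.5 to the adult, where 24.9% of all loci were. The median of the 4 was -1.36, against -0.09 over all loci. Over coding loci alone, 27.3% were called lower and the median was -0.40. The lowest of the list was Srsf1, in a locus joined with Vezf1, at 167, 176 and 57.7 FPKM. The highest was Celf2 at 13.3, 7.25 and 18.0 FPKM.

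Fendrr had no locus of that name. Its RefSeq accession was found under the older symbol 1110050K14Rik, in 1 locus of 6 exons (chr8:121054882-121083032, minus strand). This locus was listed at 0 at E10.5 and E13.5 and was at 0.0396 FPKM in the adult, about 1.46 fragments. Foxf1a, which starts 1442 bp away in the other direction, was at 0.0325, 0.756 and 0.0456 FPKM, also below 1 FPKM in all libraries. Foxc2, 33139 bp from the start of Fendrr, was expressed, at 8.20 and 6.45 FPKM in the embryonic libraries and 0.204 in the adult, and Foxl1 was at 0.330, 0.582 and 0.0641 FPKM. The 5 measured markers of lung and foregut, where the Foxf1 region is active, were Foxf1a itself, Tbx4, Nkx2-1, Barx1 and Foxf2. None of them reached 1 FPKM in any library. Fendrr was thus listed at 0 in both embryonic libraries and lay near the value of 1 fragment in the adult, which says nothing of earlier stages.

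The coding genes with the pattern nearest to each member were ranked by Euclidean distance of log2(FPKM + 1), centred over the 3 libraries, among 9947 coding loci at 5 FPKM or more. For Neat1 they were Tuba8, a muscle and testis tubulin, at 1.98, 0.149 and 103 FPKM (distance 0.11), and Lrrc2 at 3.46, 0.636 and 123 FPKM (0.15), and 25 loci lay within a distance of 1. For Malat1 they were Prepl and Nbeal1 (0.06 and 0.07, 838 loci within 1). For Dnm3os they were Qpct at 3.74, 21.5 and 3.32 FPKM (0.08) and Dlg2 at 0.492, 7.65 and 0.559 FPKM (0.19), with 167 loci within 1. For Tug1 they were Tnks2 and Morc4, for Dleu2 Rab7l1 and Sdhc, and for Pvt1 Amz2 and Pex19, with 4877, 3173 and 5101 loci within 1. With 3 libraries, such likeness is common for members that vary little and rarer for Neat1 and Dnm3os.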

How the data were processed

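Per the labels and the study's methods, the authors mapped paired-end reads of stranded total RNA libraries to mm10 with TopHat2 and Bowtie, assembled them with Cufflinks with and without UCSC annotation, and deposited 1 FPKM value per merged locus and library. Further versions, options and the handling of multiply mapped fragments are not given in the sources used here. Of the introns of RefSeq coding transcripts in the deposited annotation, 99.6% were found in GENCODE M21, so coordinates are those of GRCm38.

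Loci were taken by gene name. A member's main locus was the one with the longest transcript of that name. The members and lists were chosen with earlier results of these data known. Named genes were the members, their neighbours, the 2 nearest coding patterns of each and the extremes of each list from E10.5 to the adult. Other genes were chosen after their values were seen. No test was made, since there was 1 library per stage. Depth was estimated from the spacing of low values of FPKM times length in unspliced loci. Alternatives were median-of-ratios factors from coding loci (1.07, 1.19 and 0.804), the FPKM sum without loci under 300 nt, globin and mitochondrial loci (0.955, 1.24 and 0.842), pseudocounts of 0.1 and 0.5, a limit of 2, no filter, and loci summed per name. The 9 loci without annotation were left out. Simulated data with planted 4-fold changes and counting noise only gave 100 of 100 calls in each direction, as the limit made near certain. Variation between animals or libraries was not simulated, so this does not measure how reliable the calls are. Calculations used Python 3.11.15, numpy 2.4.6 and pandas 2.3.3.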

Additional observations from a re-analysis of the deposited data

How the results depend on the processing

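No paired analysis was possible because only 1 library was made per stage. Without replicates, levels at or below 1 FPKM, such as those of Miat and Fendrr, rest on few fragments and no direction is set for them. A single library decides each value, and leaving one out leaves no comparison.

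The 6 members at 1 FPKM and the direction of Neat1, Tug1 and Dnm3os in each called comparison held under each alternative given in the methods. The number of members called lower between E13.5 and the adult was 1 in place of 2 with median-of-ratios factors and with the FPKM sum of long loci, in both cases by the loss of Tug1, and 1 with the loci of Dnm3os summed, by the loss of Dnm3os. From E10.5 to the adult 3 in place of 2 members were called higher under each of these 3 settings, with Malat1 or, in the sum, Dnm3os added. With median-of-ratios factors and the FPKM sum of long loci, 34.8% and 31.0% of all loci were called higher there, against 25.8% as deposited. Under a limit of 2, 0 members were called lower from E10.5 to E13.5, while from E13.5 to the adult 1 was higher and 1 lower and from E10.5 to the adult 1 higher and 0 lower.

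The share of all loci called moved more. From E10.5 to E13.5 it was 2.55% higher with median-of-ratios factors, 1.82% higher with the sum of long loci, 10.3% higher and 29.3% lower with a pseudocount of 0.1, 0.561% and 2.14% with a limit of 2, and 2.18% and 9.49% with no filter on low values. Between E13.5 and the adult, 10.4% were lower with either scaling. With median-of-ratios factors 40.5% were higher, and with the sum of long loci 38.8%. The shares were 5.51% higher and 5.82% lower with a limit of 2, and 16.1% and 10.3% with no filter. Between E10.5 and the adult the shares were 4.96% and 5.93% with a limit of 2, and 14.3% and 13.8% with no filter. The filter and the limit change these shares by construction. Of the called loci, 61.0% were higher from E13.5 to the adult and 50.9% from E10.5 to the adult as deposited, against 79.5% and 67.2% with median-of-ratios factors and 78.9% and 59.5% with the sum of long loci. From E10.5 to E13.5 it was 18.7%, against 13.7% and 8.43%.

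With median-of-ratios factors the list medians moved to -0.13 for nuclear speckle and SR proteins from E10.5 to E13.5, to 0.0055 for Miat-binding splicing factors from E13.5 to the adult and to 0.19 for mesenchyme and fibroblast markers from E10.5 to the adult.

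Scaling to unnamed unspliced loci, with factors of 1.02, 0.434 and 2.11, was added after seeing the data. Malat1 then reversed, to 0.12 from E10.5 to E13.5 and -0.28 from E13.5 to the adult. The median of all loci moved to 0.91 and -1.51 in these comparisons, and relative to it Malat1 was at -0.78 and 1.22. The scaling largely but not fully cancels in this subtraction, so likeness to the deposited values of -1.09 and 1.81 is mostly built in. Tug1 changed sign relative to the median from E10.5 to E13.5, at -0.19 as deposited and 0.10 here. From E10.5 to E13.5, 4 members were called higher and 0 lower, beside 46.3% of all loci higher. From E13.5 to the adult, 1 was called higher and 4 lower, beside 6.82% and 60.0% of all loci. From E10.5 to the adult, 1 was called higher and 1 lower (Tug1, at -2.52), beside 8.45% of all loci higher and 50.1% lower. In the adult 5 members in place of 6 then reached 1 FPKM, with Dnm3os at 0.706 FPKM.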
